A study of Mus musculus with 18 samples.

Results

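Endophilin A2, the product of *Sh3gl1*, is a membrane-bending adaptor protein that takes part in endocytosis. Some transcripts were at higher levels in libraries of sorted B cells from mice without it. The 10 genes described here, *Klra1*, *Sv2b*, *Cdk5rap1*, *Loxhd1*, *Lrmp*, *Ndrg1*, *Bbs9*, *Rgl1*, *Bend5* and *Hs3st1*, were listed because each was higher without endophilin A2 in at least 1 of 3 B-cell states, out of 51912 genes in the table. The genes were chosen by their measured levels in *Sh3gl1*-/- and WT cells of these libraries, so the genotype differences below are given as values, and the calls counted for them describe the choice and support nothing. The 10 genes have no shared function that was used in listing them, and all 10 were found by symbol.

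RNA was sequenced from 18 libraries of B cells from C57BL/6 mice, in 6 groups of 3 biological replicates. Wildtype (WT) and *Sh3gl1*-/- littermates gave transitional B cells, the recent arrivals from bone marrow, and follicular B cells, the mature recirculating cells, both sorted by flow cytometry and untreated. The other 2 groups, 1 of each genotype, were follicular B cells kept for 14 h, by the sample labels, in the presence of CD40L, through which T cells activate B cells. The *Sh3gl1*-/- mice lack the gene in all cells and not only in B cells, and the age of the mice was not used here.

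The listed genes span several cell functions. *Klra1* encodes an inhibitory Ly49 receptor for MHC class I, best known from natural killer cells, and *Lrmp* encodes a membrane protein of the endoplasmic reticulum and nuclear envelope that is abundant in lymphoid cells. *Rgl1* encodes an exchange factor that activates Ral GTPases, *Bbs9* a subunit of the BBSome that carries membrane proteins to and from cilia, and *Ndrg1* a cytoplasmic protein induced by hypoxia and other stress. *Cdk5rap1* encodes an enzyme that modifies mitochondrial tRNAs, *Hs3st1* a sulfotransferase of heparan sulfate, *Bend5* a DNA-binding protein with a BEN domain, *Sv2b* a synaptic vesicle glycoprotein and *Loxhd1* a protein of hair-cell stereocilia.

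Total counts per library lay between 12404693 and 18366045, and the targeted gene followed the labels: *Sh3gl1* had 377 to 929 counts in the 9 WT libraries and 1 to 22 counts in the 9 *Sh3gl1*-/- libraries. Levels are given as CPM, counts relative to library size after TMM scaling, on 1 scale for the 18 libraries, and 3 counts in a library correspond to between 0.176 and 0.240 CPM, for counting error only. Log2 differences were fitted within each comparison and are given with their standard error (SE). *Rag1* and *Rag2* had 0 counts in all 12 follicular libraries, and *Cd93*, which marks transitional cells, had 57.5 to 85.7 CPM in transitional and 11.8 to 26.3 CPM in untreated follicular libraries. The summed level of 6 transitional markers was 885 to 1020 CPM in WT and 515 to 812 CPM in *Sh3gl1*-/- transitional libraries, so the genotypes did not overlap in it. Most of this sum was *Vpreb3*, at 498 to 562 CPM in WT and 284 to 470 CPM in *Sh3gl1*-/- libraries. Of the 5 markers tested there, only *Cd93* had a log2 difference above 0, at 0.22 (SE 0.15). Within that list only *Cd24a* was called in a genotype comparison, lower in *Sh3gl1*-/- transitional and follicular cells. Differences in the make-up of the sorted cells and in RNA per cell cannot be told apart in these bulk libraries.

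For 5 of the 10 genes the genotypes were apart in all 3 states, at a log2 difference of 0.63 or more wherever one could be fitted. These were the receptor gene *Klra1*, the BBSome gene *Bbs9*, the tRNA-modifying *Cdk5rap1*, the Ral activator *Rgl1* and *Loxhd1*. For *Loxhd1* after CD40L this rests on 2 to 11 counts against 0, the lowest under the floor of 3 counts. *Klra1* (ENSMUSG00000079853, chromosome 6 from 130363917 to 130386874, GRCm38) had 20.1, 16.8 and 18.8 CPM in the WT transitional libraries and 49.4, 40.6 and 52.3 CPM in the *Sh3gl1*-/- ones. In follicular cells it had 10.3, 10.3 and 9.78 CPM in WT and 26.9, 28.1 and 29.6 CPM without endophilin A2, and after CD40L 3.38, 1.54 and 2.76 CPM and 7.77, 4.72 and 5.07 CPM. Every *Sh3gl1*-/- library was above every WT library in each state, and the ratio of the means was 2.55 in transitional cells, 2.78 in follicular cells and 2.29 after CD40L. The log2 differences were 1.35 (SE 0.13), 1.47 (SE 0.13) and 1.22 (SE 0.36) in that order. The 6 group means of this receptor gene stood in 1 order with no overlap between neighbours, from transitional *Sh3gl1*-/- cells at 47.5 CPM down to CD40L-cultured WT cells at 2.56 CPM. Ly49 genes are close copies of each other, and counting may have divided reads between them, so the level of *Klra1* carries that uncertainty.

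*Bbs9* (ENSMUSG00000035919, chromosome 9 from 22475715 to 22888280) was the second most abundant of the 10 genes by length-scaled level, with 51.7 to 70.2 TPM in WT transitional cells. The WT transitional libraries had 98.6, 111 and 83.1 CPM and the *Sh3gl1*-/- ones 174, 181 and 192 CPM. In follicular cells the values were 62.8, 76.6 and 87.1 CPM against 151, 156 and 148 CPM, and after CD40L 23.5, 33.1 and 39.2 CPM against 49.2, 44.7 and 51.2 CPM. The genotypes were apart in each state, and the 3 *Sh3gl1*-/- follicular libraries lay between 148 and 156 CPM. The log2 difference was 0.90 (SE 0.11) in transitional cells, 1.0 (SE 0.12) in follicular cells and 0.63 (SE 0.19) after CD40L.

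*Cdk5rap1* (ENSMUSG00000027487, chromosome 2 from 154335380 to 154373010) had 8.81, 11.2 and 14.9 CPM in WT transitional cells, and 9.79, 10.7 and 10.7 CPM in WT follicular cells. The *Sh3gl1*-/- libraries had 46.6, 43.0 and 24.1 CPM in transitional and 49.0, 45.8 and 29.8 CPM in follicular cells. After CD40L the values were 13.5, 16.4 and 12.3 CPM in WT and 45.5, 34.2 and 26.6 CPM in *Sh3gl1*-/- cells. The genotypes did not overlap in any state, and the library numbered 3 was the lowest of the 3 *Sh3gl1*-/- libraries in all 3 states. The log2 differences were 1.71 (SE 0.27), 2.0 (SE 0.18) and 1.36 (SE 0.23). Across states the 3 *Sh3gl1*-/- groups of *Cdk5rap1* overlapped each other, and among WT cells the follicular libraries lay below the CD40L-cultured ones.

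*Rgl1* (ENSMUSG00000026482, chromosome 1 from 152516760 to 152766351) had 6.49, 11.2 and 8.45 CPM in WT and 20.2, 13.5 and 20.2 CPM in *Sh3gl1*-/- transitional cells. In follicular cells the values were 11.3, 10.6 and 8.88 CPM in WT and 25.8, 27.5 and 21.9 CPM without endophilin A2. After CD40L they were 3.31, 4.28 and 2.27 CPM and 12.99, 13.8 and 11.2 CPM. This activator of Ral was therefore apart between the genotypes in each state, and the ratio of the means was 2.06 in transitional cells, 2.45 in follicular cells and 3.86 after CD40L. The log2 differences were 1.05 (SE 0.24), 1.29 (SE 0.16) and 1.98 (SE 0.28).

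*Loxhd1* (ENSMUSG00000032818, chromosome 18 from 77281958 to 77442930) was a low-level transcript, with 0.33 to 0.72 TPM in WT transitional cells. The WT transitional libraries had 1.44, 2.16 and 0.632 CPM and the *Sh3gl1*-/- ones 4.39, 4.53 and 7.76 CPM, and the follicular libraries had 2.20, 1.79 and 2.11 CPM against 11.3, 9.89 and 8.59 CPM. The genotypes were apart in both states, at a log2 difference of 1.97 (SE 0.45) and 2.28 (SE 0.25). After CD40L the WT libraries had 0 counts each and the *Sh3gl1*-/- libraries 11, 2 and 5 counts. Set against a floor of 3 counts per WT library, the CD40L-cultured *Sh3gl1*-/- mean was at least 2.11-fold higher, a value that rests on these few counts.

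**Figure D1:**
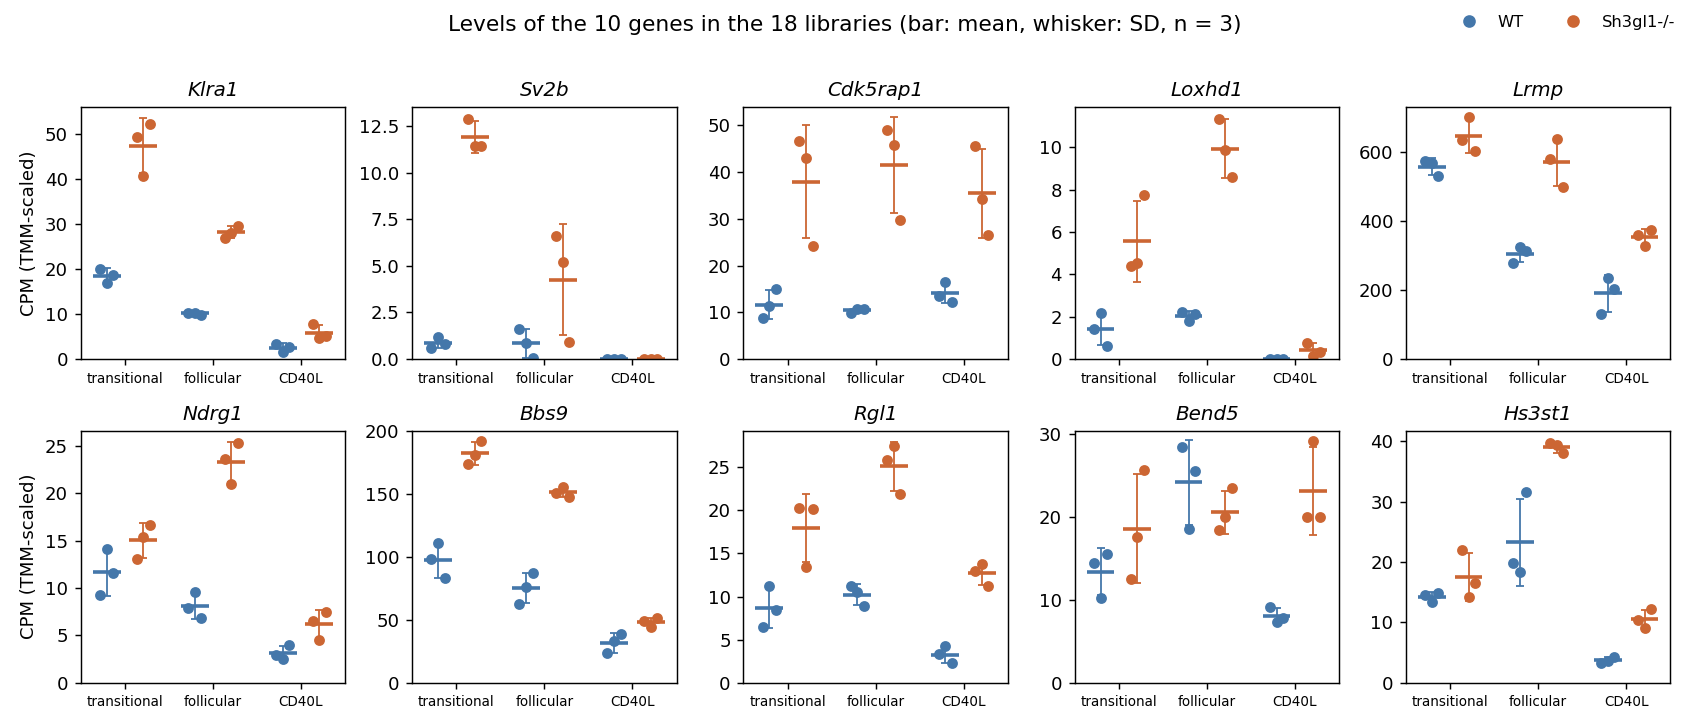
Level of each of the 10 genes in the 18 libraries in CPM on a linear axis starting at 0, by cell state, with WT in blue and *Sh3gl1*-/- in orange; points are libraries, bars the mean and whiskers the SD of 3. *Klra1*, *Cdk5rap1*, *Loxhd1*, *Lrmp*, *Bbs9* and *Rgl1* have all 3 *Sh3gl1*-/- points above all WT points in each state, while *Bend5* does so only after CD40L. For *Loxhd1* after CD40L these points rest on 2 to 11 counts against 0.

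Another group of genes showed a small difference in transitional cells and a larger one in follicular cells. *Lrmp* (ENSMUSG00000030263, chromosome 6 from 145115653 to 145174934) had the highest length-scaled level of the 10, between 76.3 and 486 TPM. It had 572, 569 and 529 CPM in WT and 633, 701 and 603 CPM in *Sh3gl1*-/- transitional cells, 277, 325 and 313 CPM against 579, 638 and 497 CPM in follicular cells, and 131, 235 and 204 CPM against 359, 326 and 373 CPM after CD40L. The genotypes were apart in each state, by a ratio of 1.16 in transitional, 1.87 in follicular and 1.86 in CD40L-cultured cells. The log2 differences were 0.22 (SE 0.08), 0.90 (SE 0.10) and 0.92 (SE 0.19), and the follicular difference was larger than the transitional one by 0.67 (SE 0.13). The follicular *Sh3gl1*-/- libraries overlapped the WT transitional ones in *Lrmp*, whereas follicular WT libraries lay below both.

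*Ndrg1* (ENSMUSG00000005125, chromosome 15 from 66929318 to 66969640) overlapped between the genotypes in transitional cells, with 9.22, 14.2 and 11.6 CPM in WT and 13.01, 15.4 and 16.7 CPM in *Sh3gl1*-/- libraries. In follicular cells it had 7.91, 9.58 and 6.85 CPM in WT and 23.6, 20.99 and 25.3 CPM without endophilin A2, and after CD40L 2.9, 2.54 and 3.98 CPM and 6.50, 4.48 and 7.52 CPM. Both follicular states kept the genotypes apart for this stress-inducible gene. The log2 differences were 0.37 (SE 0.19), 1.52 (SE 0.17) and 1.0 (SE 0.31), and the follicular difference exceeded the transitional one by 1.13 (SE 0.26). From transitional to follicular cells *Ndrg1* differed by -0.51 on the log2 scale in WT and by 0.62 in *Sh3gl1*-/- cells.

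*Sv2b* (ENSMUSG00000053025, chromosome 7 from 75114894 to 75309262) had the largest ratio between the genotypes of the 10 genes in transitional cells, at 13.8. It had 0.615, 1.19 and 0.790 CPM in WT and 12.9, 11.4 and 11.4 CPM in *Sh3gl1*-/- transitional cells, a log2 difference of 3.78 (SE 0.29). In follicular cells the WT libraries had 1.62, 0.865 and 0.0753 CPM and the *Sh3gl1*-/- libraries 6.61, 5.23 and 0.931 CPM. In TPM these libraries did not overlap, at 0.25 to 0.37 in WT and 0.73 to 2.21 in *Sh3gl1*-/- cells. The 3 WT libraries had 25, 14 and 1 counts at 0.37, 0.25 and 0.28 TPM, so TPM did not follow the counts there. In CPM the third *Sh3gl1*-/- library, with 13 counts, lay among the WT values, and the log2 difference of 2.28 had an SE of 0.79. Without that library the follicular difference was 2.75 (SE 0.68), and it was 3.09 without WT replicate 1, 1.77 without WT replicate 3 and 1.82 without *Sh3gl1*-/- replicate 1. All 6 CD40L-cultured libraries had 0 counts of *Sv2b*, so no genotype difference can be given there.

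*Bend5* and *Hs3st1* each had their largest genotype difference after culture with CD40L, as *Rgl1* did. *Bend5* (ENSMUSG00000028545, chromosome 4 from 111415006 to 111460298) had 14.5, 10.3 and 15.6 CPM in WT and 12.6, 17.6 and 25.7 CPM in *Sh3gl1*-/- transitional cells, and 28.5, 18.5 and 25.6 CPM against 18.4, 19.97 and 23.5 CPM in follicular cells. The genotypes overlapped in both untreated states. After CD40L the WT libraries had 9.18, 7.35 and 7.78 CPM and the *Sh3gl1*-/- libraries 20.1, 29.3 and 20.05 CPM, with no overlap. The log2 differences were 0.47 (SE 0.26), -0.23 (SE 0.17) and 1.54 (SE 0.23). Between follicular cells before and after CD40L the genotype difference of *Bend5* changed by 1.75 (SE 0.29), which is given as a description, since the same libraries chose the gene.

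*Hs3st1* (ENSMUSG00000051022, chromosome 5 from 39613935 to 39755475) had 14.5, 13.3 and 14.9 CPM in WT and 21.97, 14.2 and 16.6 CPM in *Sh3gl1*-/- transitional cells. The follicular values were 19.9, 18.3 and 31.5 CPM against 39.7, 39.4 and 38.01 CPM, and those after CD40L 3.24, 3.61 and 4.35 CPM against 10.4, 9.11 and 12.2 CPM. The sulfotransferase gene overlapped between the genotypes only in transitional cells. Its log2 differences were 0.31 (SE 0.18), 0.75 (SE 0.18) and 1.53 (SE 0.24) in transitional, follicular and CD40L-cultured cells, and the last exceeded the follicular one by 0.76 (SE 0.29) in the joint fit of the follicular libraries.

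**Figure D2:**
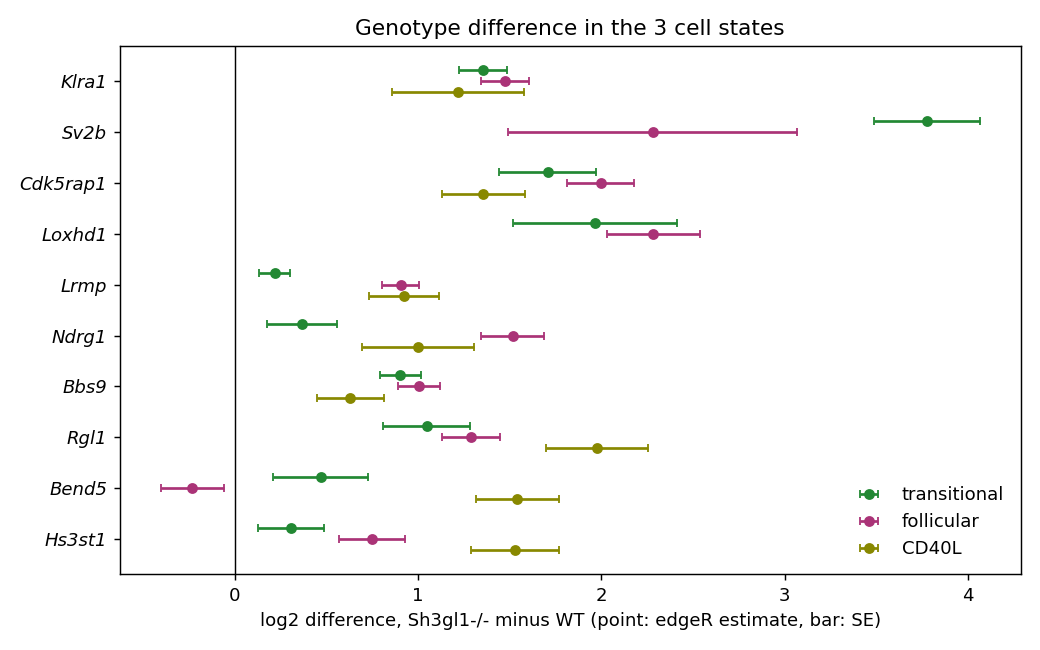
Log2 difference between *Sh3gl1*-/- and WT cells for each gene in transitional (green), follicular (magenta) and CD40L-cultured (olive) cells, with bars of 1 SE from edgeR; *Sv2b* and *Loxhd1* have no CD40L point because they did not pass the filter on low counts there. *Klra1* stays between 1.22 and 1.47, *Ndrg1* is at 0.37 in transitional and 1.52 in follicular cells, and *Bend5* is at -0.23 in follicular and 1.54 in CD40L-cultured cells.

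Counted over the list, 6 of the 10 genes were called higher in *Sh3gl1*-/- transitional cells by edgeR's quasi-likelihood test at an adjusted p under 0.05 (*Rgl1*, *Cdk5rap1*, *Loxhd1*, *Bbs9*, *Sv2b* and *Klra1*), where 1.26% of the 13775 genes tested were. In follicular cells 7 of 10 were called higher (*Ndrg1*, *Rgl1*, *Cdk5rap1*, *Lrmp*, *Loxhd1*, *Bbs9* and *Klra1*), where 0.485% of 13610 were. After CD40L 0 of the 8 genes that passed the filter on low counts were called, and 0.0% of 13190 genes were called higher; 930 genes had an unadjusted p under 0.05, the 8 among them, and DESeq2 called 5 of the 8. Without a filter 5 of 9 were called, and with all 18 libraries in 1 fit 7 of 10. These shares describe how the genes were listed and nothing is read from them. The transitional calls depended on single libraries: without any 1 of the 6 libraries between 3 and 5 of the genes were called. *Rgl1* was lost without any WT library and without *Sh3gl1*-/- replicates 1 and 3, *Loxhd1* without any 1 library, *Cdk5rap1* without WT replicate 2 and without *Sh3gl1*-/- replicate 1, and *Bbs9* without *Sh3gl1*-/- replicate 3. The follicular count stayed at 7 or 8. Neither *Bend5* nor *Hs3st1* was among the genes called in the edgeR count given first for each state.

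All 3 *Sh3gl1*-/- libraries were above all 3 WT libraries for 7 of the 10 genes in transitional cells (13.6% of genes tested), for 8 in follicular cells (8.06%) and for 9 after CD40L (6.2%). In all 3 states together this held for *Klra1*, *Cdk5rap1*, *Loxhd1*, *Lrmp*, *Bbs9* and *Rgl1*, 6 of the 10 genes, and for 83 of 15117 genes (0.549%). *Loxhd1* is included after CD40L, although it did not pass the filter there and had 2 to 11 counts against 0. The difference in genotype effect between follicular and transitional cells, tested over all genes, was called for 10 of 14580 genes (0.0686%), and that between CD40L-cultured and follicular cells for 0 of 14460 (0.0%), with 1278 genes at an unadjusted p under 0.05 and 25 called by DESeq2. None of the 10 listed genes was called in either by edgeR with a filter on low counts and without a block. With the library numbers, which pair the untreated libraries, as a block within genotype, the first count was 99, with *Lrmp* among the genes called. *Ndrg1* and *Lrmp* were called there by DESeq2 and without a filter on low counts, and *Bend5* in the second comparison without that filter. These calls rest on the libraries that chose the genes.

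Windows upstream of RefSeq start sites were used for 7 of the 10 genes, and the 250 bases upstream are shown for *Klra1* and *Bbs9*, which were apart between the genotypes in all 3 states, and for *Bend5*, which was so only after CD40L, so that genes with these patterns can be read side by side. Each window ends directly before the annotated gene. They lie on GRCm38.p6 at chr6:130386875-130387124 on the minus strand, chr9:22475465-22475714 on the plus strand and chr4:111414756-111415005 on the plus strand. Capitals mark CpG dinucleotides.
Klra1: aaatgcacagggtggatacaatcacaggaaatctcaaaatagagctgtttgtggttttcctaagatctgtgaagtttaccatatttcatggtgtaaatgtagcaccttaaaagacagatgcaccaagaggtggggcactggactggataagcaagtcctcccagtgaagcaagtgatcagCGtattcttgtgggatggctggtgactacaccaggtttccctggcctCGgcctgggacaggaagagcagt
Bbs9: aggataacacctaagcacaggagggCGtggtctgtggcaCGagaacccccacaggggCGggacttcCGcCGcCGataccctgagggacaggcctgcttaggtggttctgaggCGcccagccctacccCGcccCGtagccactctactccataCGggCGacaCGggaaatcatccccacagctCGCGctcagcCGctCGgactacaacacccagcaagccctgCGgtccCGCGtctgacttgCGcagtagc
Bend5: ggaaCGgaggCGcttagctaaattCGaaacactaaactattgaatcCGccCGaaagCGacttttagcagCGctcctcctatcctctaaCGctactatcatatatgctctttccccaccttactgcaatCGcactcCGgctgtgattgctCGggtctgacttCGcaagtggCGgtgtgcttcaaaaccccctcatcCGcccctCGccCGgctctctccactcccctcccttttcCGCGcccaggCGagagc
The *Klra1* window held 2 CpG dinucleotides, the *Bbs9* window 20 and the *Bend5* window 19. At least 10 were present in 37.8% of the 32841 mouse windows of this length, and also in those of *Cdk5rap1* (15), *Hs3st1* (19) and *Rgl1* (37 and 13 at its 2 starts), while the 4 windows of *Sv2b* held 0 to 8. The E-box CACGTG, which reads alike on both strands, was in 1 window of *Rgl1* and 1 of *Sv2b* and in 6.02% of all windows. It was absent from the 3 windows shown, which says only that these letters are not there.

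Genes related to the listed ones by family, complex or pathway were counted in the same comparisons. Of the 10 other Ly49 genes 6 passed the filter in untreated cells, and 1, *Klra3*, was higher in *Sh3gl1*-/- transitional cells, with 6.89 to 8.73 CPM against 1.3 to 3.79 CPM (log2 difference 1.63, SE 0.36, adjusted p = 0.041 from edgeR). That call was lost without 5 of the 6 libraries, all but WT replicate 3. In follicular cells *Klra3* had a log2 difference of 1.33 (SE 0.30, adjusted p = 0.082), and all 6 genes had values above 0 in both states. Their median was 1.19 in transitional and 1.21 in follicular cells, beside 0.02 and -0.003 over all genes tested and 1.35 and 1.47 for *Klra1*. Since the copies of this family may share reads, *Klra3* and *Klra1* cannot be counted as separate measurements with certainty.

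Among 18 other targets of the hypoxia-inducible factor, 15 passed the filter and 0 were called higher in *Sh3gl1*-/- cells in any state. The glucose transporter gene *Slc2a1* and the lactate dehydrogenase gene *Ldha* were lower in *Sh3gl1*-/- transitional cells, as were 2.48% of all genes tested, by log2 differences of -0.57 (SE 0.10, adjusted p = 0.025) and -0.44 (SE 0.10, adjusted p = 0.041, both from edgeR). *Slc2a1* was lost without WT replicate 2 or *Sh3gl1*-/- replicate 1 or 3, and *Ldha* without any library but WT replicate 1. Over these 15 genes the median log2 difference was -0.12 in transitional, -0.003 in follicular and -0.10 in CD40L-cultured cells. In follicular cells their single values went both ways, from -0.48 to 0.89, without a call.

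The partners of the other listed genes gave no call by genotype. Of the 8 other BBSome genes, 6 were tested in untreated cells and 8 after CD40L, and 0 were called in any state, with *Bbip1*, the most abundant, at log2 differences of -0.06, -0.03 and -0.10. The same count of 0 was found for 6 Ral GTPases and exchange factors tested of 7, for 10 heparan sulfate genes of 14, for the tRNA genes *Cdkal1* and *Trit1*, for the KASH proteins and inositol trisphosphate receptors, and for the relatives of *Bend5*, *Ndrg1* and *Sv2b*. Among Ral activators *Ralgps2*, at 519 CPM on average, had log2 differences of -0.33 (SE 0.09, adjusted p = 0.077), -0.31 (SE 0.07, adjusted p = 0.074) and -0.03 (SE 0.14, adjusted p = 0.97 from edgeR) in the 3 states. *Ndrg3*, the most abundant relative of *Ndrg1*, was at -0.23, -0.07 and -0.05. A missed threshold does not show that these genes are equal between the genotypes.

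The cell states themselves can be compared on these genes without using the choice by genotype, by averaging over both genotypes, which enter equally. The sorted cells also differed in markers of other cells. The sum of 8 macrophage and monocyte markers was 690 to 906 CPM in WT and 684 to 1172 CPM in *Sh3gl1*-/- transitional libraries. In follicular ones it was 125 to 170 CPM and 141 to 323 CPM. All 8 were called lower in follicular cells (median log2 difference -3.04), and their part in the values below was not tested. Between follicular and transitional cells 2 of the 10 genes were higher in follicular cells and 3 lower, where 13.5% and 16.9% of 14580 genes were. *Hs3st1* was higher in follicular cells by 0.92 on the log2 scale (SE 0.14, adjusted p = 0.000186 from edgeR). *Klra1* fell by 0.81 (SE 0.09, adjusted p = 9.32e-06), *Lrmp* fell by 0.52 (SE 0.07, adjusted p = 5.24e-05) and *Bbs9* fell by 0.32 (SE 0.08, adjusted p = 0.011). Each of these differences had the same sign in WT and *Sh3gl1*-/- cells. *Bend5* was higher in follicular cells by 0.50 (SE 0.17, adjusted p = 0.039), which came to 0.86 in WT and 0.14 in *Sh3gl1*-/- cells. Its call was lost without WT transitional replicates 1 or 2, *Sh3gl1*-/- transitional replicates 1 or 2, WT follicular replicates 1 or 3, or *Sh3gl1*-/- follicular replicates 2 or 3, at an adjusted p of up to 0.096.

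The other 5 genes did not pass the test between follicular and transitional cells. *Loxhd1* had a log2 difference of 0.68 (SE 0.25, adjusted p = 0.056), *Rgl1* 0.36 (SE 0.15, adjusted p = 0.081), *Sv2b* -0.74 (SE 0.48, adjusted p = 0.27), *Ndrg1* 0.06 (SE 0.13, adjusted p = 0.79) and *Cdk5rap1* -0.02 (SE 0.18, adjusted p = 0.95, all from edgeR). *Loxhd1* was called without WT transitional replicate 2 or *Sh3gl1*-/- transitional replicate 3, and *Rgl1* without WT transitional replicate 2. For *Ndrg1* the mean joins opposite signs in the 2 genotypes, as given above. The mean of *Sv2b* joins 0.02 in WT and -1.50 in *Sh3gl1*-/- cells, and that of *Cdk5rap1* -0.15 and 0.12.

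Culture with CD40L went with lower levels of 9 of the 10 genes relative to untreated follicular cells, where 31.3% of 14460 genes were lower and 28.8% higher. All CD40L-treated cells were cultured and all untreated cells were not, so culture and CD40L cannot be told apart. *Hs3st1* fell by 2.28 (SE 0.15, adjusted p = 1.81e-08), *Klra1* fell by 2.15 (SE 0.18, adjusted p = 1.81e-07), *Ndrg1* fell by 1.66 (SE 0.17, adjusted p = 1.27e-06), *Bbs9* fell by 1.47 (SE 0.12, adjusted p = 1.18e-07) and *Rgl1* fell by 1.34 (SE 0.15, adjusted p = 3.75e-06, all from edgeR). *Bend5* and *Lrmp* fell by 0.73 (SE 0.14, adjusted p = 0.000563) and by 0.71 (SE 0.12, adjusted p = 0.000147). *Sv2b* and *Loxhd1* are counted in the 9, but they passed the filter on low counts here only through the untreated follicular libraries. Their lower level after CD40L was thus close to fixed by the filter, and no test is given for them. Against a floor of 3 counts per library, *Sv2b* was at least 4.33-fold lower in WT and at least 19.97-fold lower in *Sh3gl1*-/- cells, and *Loxhd1* at least 10.3-fold lower in WT cells.

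*Cdk5rap1* was the exception, with a log2 difference of 0.08 (SE 0.15, adjusted p = 0.67 from edgeR) between CD40L-cultured and untreated follicular cells. That mean joins 0.41 in WT and -0.25 in *Sh3gl1*-/- cells. The median over the 10 genes was -1.56, also with *Sv2b* and *Loxhd1* set at their bounds, beside -0.06 over all genes tested, of which the middle 50% lay between -0.63 and 0.49. Among the 8 genes with counts in all groups, the fitted response differed most between genotypes for *Bend5*, at -1.61 in WT and 0.15 in *Sh3gl1*-/- cells, so its lower mean came from the WT cells. *Hs3st1* was at -2.66 in WT and -1.90 in *Sh3gl1*-/- cells, and *Lrmp* at -0.71 in both.

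**Figure D3:**
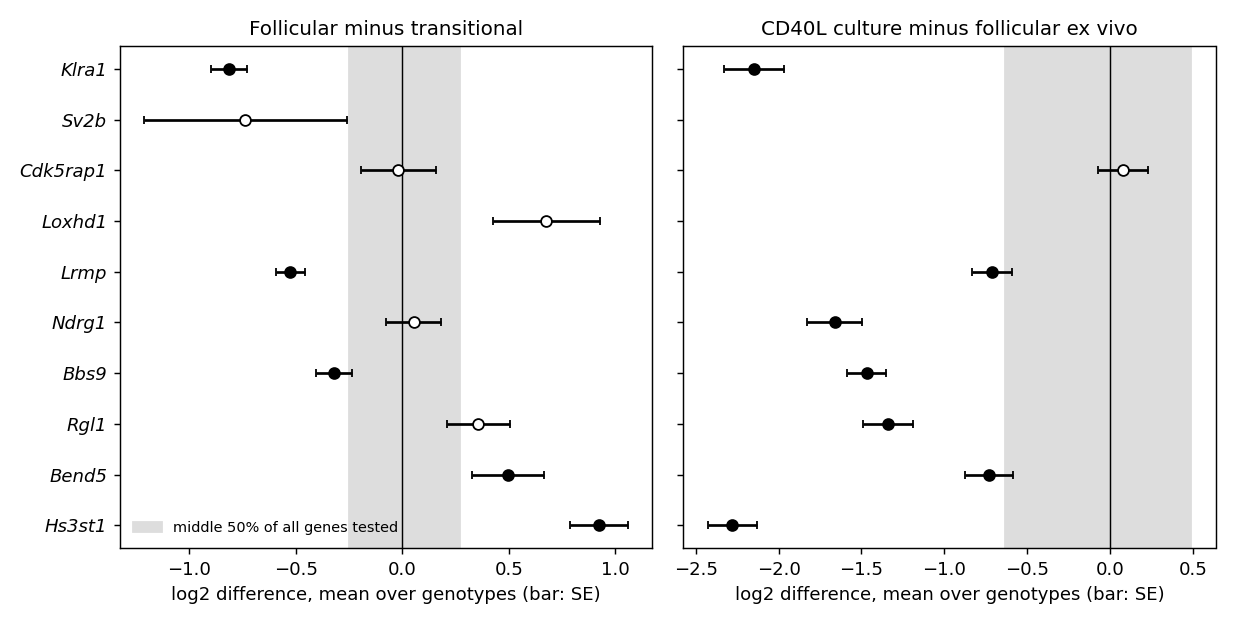
Log2 difference between follicular and transitional cells (left) and between CD40L-cultured and untreated follicular cells (right) for each gene, averaged over the genotypes, with bars of 1 SE; filled points passed an adjusted p of 0.05 and the grey band is the middle 50% of all genes tested. On the right, where *Sv2b* and *Loxhd1* are left out because of their 0 counts, 7 of the 8 points lie left of 0 and pass, and *Cdk5rap1* is at 0.08.

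Markers of other cell types moved with genotype and state beside these genes. The summed level of 8 T-cell markers was 57.6 to 91.0 CPM in WT and 99.5 to 150 CPM in *Sh3gl1*-/- transitional libraries, 87.4 to 120 CPM and 171 to 230 CPM in follicular ones, and 25.6 to 28.9 CPM and 40.3 to 52.1 CPM after CD40L. In follicular cells 3 of the 8 were called higher without endophilin A2, *Cd3e*, *Cd3d* and *Lat*, and *Lat* also in transitional cells, and of these *Cd3e* in follicular cells kept its call without any 1 library. All 8 were lower after CD40L. *Cd3d* and the T-cell receptor segment *Trbv16* were 2 of the 3 genes nearest to *Hs3st1* over the libraries, at r = 0.94 and 0.97, and the part of T cells in its values was not tested.

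Natural killer cells, where Ly49 receptors are best known, gave 8 markers with a summed level of 32.6 to 66.5 CPM in WT and 49.6 to 82.7 CPM in *Sh3gl1*-/- transitional libraries, and of 43.2 to 102 CPM and 75.6 to 106 CPM in follicular ones. The genotypes overlapped in this sum in both states and 0 of the 8 markers were called by genotype. The median log2 difference of the markers tested was 0.74 in transitional, 0.52 in follicular and 0.46 in CD40L-cultured cells, beside 0.02, -0.003 and 0.01 over all genes. The part of natural killer cells in the level of *Klra1* was not tested. After CD40L the sum was 5.11 to 9.18 CPM and 5.23 to 7.58 CPM, with *Gzmb* at 0 counts, and all 8 markers were lower than in untreated follicular cells.

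All 6 erythroid markers were called higher in *Sh3gl1*-/- transitional cells, and each call was lost without any library but *Sh3gl1*-/- replicate 2. Their summed level was 3023, 3980 and 2285 CPM in WT and 8861, 4450 and 9532 CPM in *Sh3gl1*-/- transitional libraries, beside the 12.9, 11.4 and 11.4 CPM of *Sv2b* given above. The genes nearest to *Sv2b* over the 18 libraries were *Cldn13* (r = 0.94), *Cstad* and *Rhd* (r = 0.93 each), of which *Rhd* encodes a blood group protein of red cells. In follicular libraries the erythroid sum was 6598, 3005 and 9364 CPM without endophilin A2, highest in the library where *Sv2b* was lowest. In the WT follicular libraries it was 3867, 3572 and 1434 CPM, in the same order as the 1.62, 0.865 and 0.0753 CPM of *Sv2b*. After CD40L it was 6.56 to 362 CPM in WT and 31.7 to 115 CPM in *Sh3gl1*-/- libraries, with *Sv2b* at 0 counts. The part of red cells in the level of *Sv2b* was not tested. The sum of 8 neutrophil markers was 55.1 to 99.8 CPM in WT and 117 to 586 CPM in *Sh3gl1*-/- transitional cells, and 65.6 to 182 CPM and 185 to 827 CPM in follicular cells, where 1 marker, *Camp*, was called, in transitional cells only; replicate 1 was the highest of the *Sh3gl1*-/- libraries in each state. The sum of 5 plasma cell markers was 512 to 737 CPM in WT and 1166 to 4639 CPM in *Sh3gl1*-/- transitional cells, with *Jchain* the 1 marker called, and this call was lost without any library but *Sh3gl1*-/- replicate 2. The summed level of 7 marginal zone markers was lower in *Sh3gl1*-/- cells without overlap in each state, at 617 to 715 CPM against 878 to 918 CPM in transitional, 757 to 926 CPM against 955 to 1192 CPM in follicular and 345 to 408 CPM against 452 to 600 CPM in CD40L-cultured libraries. Most of this sum was *Cr2*, also on the list of follicular markers, at 597 to 759 CPM against 766 to 960 CPM in follicular cells. The median log2 difference of the 7 was -0.57, -0.35 and -0.26 in the 3 states. Values above 0 were those of *Myof* in each state (0.13, 0.17 and 1.16), *Cd9* in follicular cells (0.04) and *S1pr3* after CD40L (0.01). Among the 7 markers *Cd1d1* was called lower, in transitional cells, and that call was lost without *Sh3gl1*-/- replicate 1 or 3. The sum of 6 B-cell markers was 10707 to 11449 CPM in *Sh3gl1*-/- and 11945 to 12509 CPM in WT follicular cells, and 8310 to 8872 CPM and 9207 to 9560 CPM after CD40L. The part of these cells in the values of the 10 genes was not tested.

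**Figure D4:**
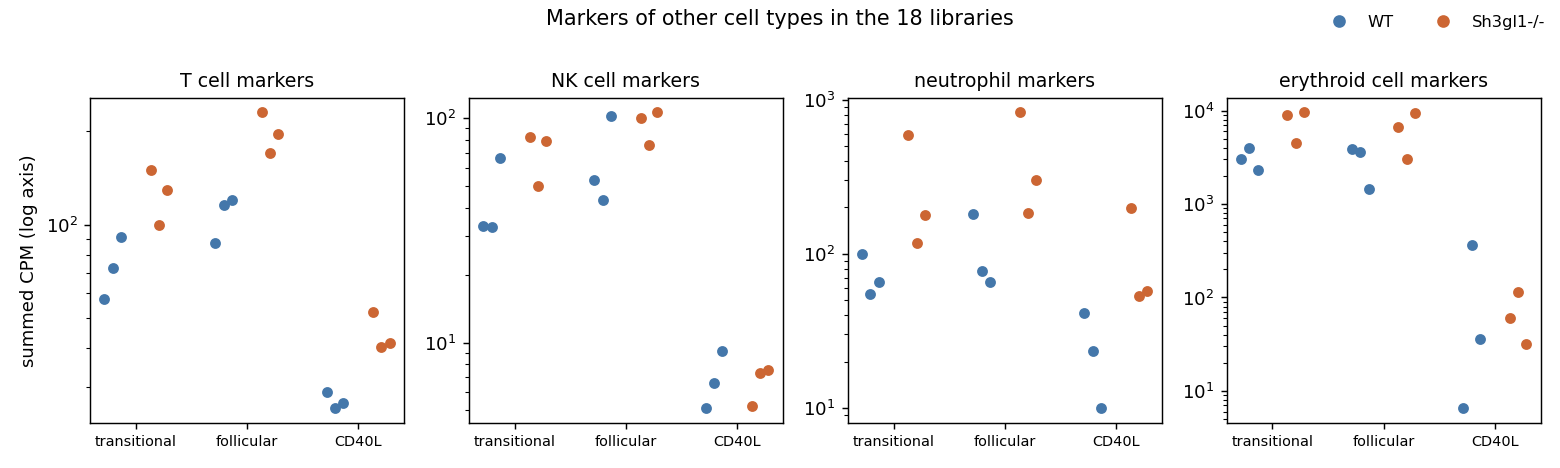
Summed CPM of the T-cell, natural killer, neutrophil and erythroid markers in the 18 libraries on log axes, by cell state, with WT in blue and *Sh3gl1*-/- in orange, 1 point per library. T-cell sums are apart between the genotypes in each state (171 to 230 CPM against 87.4 to 120 CPM in follicular cells), natural killer sums overlap, and the T-cell, natural killer and erythroid sums are lower in every CD40L-cultured library than in every untreated follicular one.

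Over the 18 libraries the levels of the 10 genes were alike to different degrees, with Pearson's r of log2 CPM between 0.23 and 0.95 (median 0.76) over their 45 pairs. The libraries share the 6 groups, and the coefficients are descriptions of them. *Klra1* and *Bbs9* were the closest pair (r = 0.95), and *Ppm1h*, which encodes a phosphatase, was the gene nearest to each of them (r = 0.97 and 0.96). *Ndrg1* was nearest to *Loxhd1* (r = 0.94) and *Pcp4* (r = 0.93), and *Loxhd1* to *Pcp4* (r = 0.98) and *Tsc1* (r = 0.95). *Lrmp* was nearest to *Flcn* (r = 0.94), which encodes folliculin, to *Rgs13* (r = 0.93) and to *Fyb* (r = 0.92). *Rgs13*, a regulator of G-protein signalling found in germinal centre B cells, had 58.6 to 69.2 CPM in *Sh3gl1*-/- and 24.2 to 40.3 CPM in WT transitional cells, and it was 1 of 2 germinal centre genes called there, with *Mki67*, which was lower. The *Rgs13* call was lost without WT replicate 1 or 2 or *Sh3gl1*-/- replicate 1 or 3, and that of *Mki67* without any library but WT replicate 1. *Rgs13* was not called in the other states, but the genotypes were apart there too. It had 31.8 to 36.1 CPM against 4.37 to 15.3 CPM in follicular cells (log2 difference 1.60, SE 0.33, adjusted p = 0.056). After CD40L it had 9.84 to 16.3 CPM against 2.14 to 4.81 CPM (2.07, SE 0.34, adjusted p = 0.12, both from edgeR). *Cdk5rap1* and *Rgl1* had less close neighbours, with *Stap2* at 0.86 and *Crisp3* at 0.90. The other genes reported among the nearest 3 lay between 0.79 and 0.96.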

How the data were processed

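RNA was sequenced from 18 libraries, and the 54 deposited columns of values were each matched to 1 library by name. The authors deposited expected counts, TPM and FPKM per gene. The submitters' notes name cutadapt 1.9.1, STAR 2.5.2a, RSEM 1.3.0 and GRCm38, and a stranded mRNA kit, while the study's methods name TopHat, Cufflinks and another kit, and an overnight culture with CD40L. Strand in counting is not given in the sources used here. RSEM divides reads between similar genes, and the deposited expected counts were not normalized. The deposited TPM values are scaled to transcript length and library and were used for levels between genes and as an alternative to CPM (pseudocount 0.1), and the deposited FPKM values were used in no result. Gene positions came from GENCODE M21, which gave a symbol for 51633 identifiers, and start-site windows from RefSeq.

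Expected counts, of which 28.5% to 31.0% of the values above 0 in a library were not whole, were rounded. In edgeR (version 4.0.16, under R 4.3.3) the counts were TMM-scaled, filtered by filterByExpr and given the quasi-likelihood test, with Benjamini-Hochberg adjustment over all genes tested. Genotype was fitted within each state, and states on 12 libraries with 1 coefficient per group. The scripts were tested on simulated counts. Genes named are the listed 10, *Sh3gl1*, genes of fixed lists that were called or were the most abundant, genes the text gives as markers, and the 3 nearest neighbours of each listed gene by r of log2 CPM (prior count 2). The value of 1 gene that met this rule is not reported here. The members and lists were chosen with earlier results of these data known, so nothing here is independent of them. Alternatives were DESeq2 1.42.0, RLE size factors, other filters, leaving out each library, a replicate block and 1 fit of all libraries.

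The 18 pairs of libraries within groups differed by more than counting noise (chi-square per degree of freedom 9.89 to 52.7), so each was counted as 1 sample. The biological coefficient of variation was 19.2% in transitional, 18.3% in follicular and 23.1% in CD40L-cultured cells. Deviations from the group means of same-numbered transitional and follicular libraries of 1 genotype correlated at 0.103 to 0.242 in WT and 0.114 to 0.263 in *Sh3gl1*-/- cells, over 3 pairs each, so these numbers were taken to pair the libraries. The SEs and adjusted p between follicular and transitional cells given in the Results came from the fit without this pairing. The fits with a block are among the alternatives. The labels call the replicates biological, from littermates, and do not give the mouse behind each library.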

Additional observations from a re-analysis of the deposited data

How the results depend on the processing

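With a replicate block or a block within genotype, none of the 10 genes changed its call between states. The genes called by genotype numbered 514 in transitional, 115 in follicular and 3 in CD40L-cultured cells. In that order, they were 1340, 352 and 78 with DESeq2, 1415, 602 and 216 without a filter on low counts, 90, 212 and 21 with the replicate block, and 144, 49 and 82 with all 18 libraries in 1 fit. Leaving out 1 library gave 28 to 479, 32 to 112 and 1 to 9. With the block 3 of the 10 genes were called in transitional cells in place of 6 (*Sv2b*, *Bbs9* and *Klra1*), 8 in follicular cells and 3 after CD40L. Same-numbered WT and *Sh3gl1*-/- libraries correlated at -0.087 to 0.101 in their deviations, and follicular and CD40L-cultured ones at 0.136 to 0.224 in WT and 0.030 to 0.119 in *Sh3gl1*-/- cells. Not every pair of either comparison was over 0.1, so those numbers were not taken as pairs, although the 3 WT pairs of the second were over it. For every follicular library the closest of the 3 CD40L-cultured libraries of its genotype was nonetheless the same-numbered one. The fit without pairs may therefore leave out a pairing there.

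The difference in genotype effect between follicular and transitional cells was called for 10 genes, for 363 with DESeq2, 453 without a filter, 20 with the replicate block, 99 with the block within genotype, 0 with all libraries in 1 fit, and 0 to 23 without 1 library. That between CD40L-cultured and follicular cells was called for 0 genes, for 25 with DESeq2, 208 without a filter and 0 or 1 without 1 library. The causes were not tested. Between states 4440 and 8692 genes were called, 3586 to 4393 and 8298 to 8922 without 1 library.

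For the 10 genes no value changed sign where it was called. Of 380 values between states 365 kept their side of the threshold, 7 passed it newly and 8 no longer did, the last all for *Bend5* as given above. *Loxhd1* passed between follicular and transitional cells with DESeq2 (adjusted p = 0.033) and without a filter (0.034), as did *Sv2b* (0.045) and *Rgl1* (0.042) without a filter. Of 364 genotype values 2 moved by more than the spread, both with TPM in place of CPM, *Klra1* in follicular cells to 1.14 and *Bbs9* after CD40L to 0.87. Low counts limit *Sv2b* and *Loxhd1*.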
